A study of Homo sapiens with 12 samples.

Results

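The BCL2 family apoptosis regulators described here are 10 genes, BCL2, BCL2L1, MCL1, BCL2A1, BCL2L11, BBC3, PMAIP1, BID, BAX and BAK1, out of 20046 genes that the array annotation named. Members were chosen by symbol, and every probe that the annotation gave to 1 of these symbols and to no other gene was taken, 22 probes in all. 3 of the genes had 1 probe and 7 had several. The cells were K562, a human erythroleukemia line that carries the BCR-ABL fusion kinase. One line expressed AE9a, a shortened splice form of the leukemia fusion protein AML1-ETO (RUNX1-RUNX1T1), and the other was wild type K562. Each was nucleofected with 3 µg of siRNA and harvested after 24 hours, and RNA was read on 12 Illumina BeadChip arrays. The groups were AE9a cells given siRNA against PRMT1 (siPRMT1), AE9a cells given a control siRNA, wild type cells given siPRMT1 and wild type cells given the control siRNA, with 3 arrays each. All 4 groups shared the BCR-ABL background, the nucleofection and the siRNA dose. The sources used here do not say which promoter drove AE9a, whether the AE9a line was 1 clone, or whether replicates came from separate cultures. The p-values therefore measure the spread between these arrays, which may be technical.

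Proteins of the BCL2 family decide whether the outer mitochondrial membrane is opened, the step that releases cytochrome c and starts the caspase cascade. BCL2, BCL-XL (the long product of BCL2L1), MCL1 and BCL2A1 keep the membrane closed, BAX and BAK1 form the pores, and the BH3-only proteins BIM (BCL2L11), PUMA (BBC3), NOXA (PMAIP1) and BID shift the balance towards opening by binding the other members. In cells with BCR-ABL, signalling through STAT5 is known to raise BCL-XL, and activity of the kinase is known to keep BIM low. PRMT1 is a methyltransferase for arginine residues of histones and other proteins, and is known as a partner of AML1-ETO.

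The promoter ends of 3 members are shown because their probes gave the values that recur below: BBC3 and BCL2L1, which fell with siPRMT1 in AE9a cells, BCL2L1 by 1 of its 2 probes, and BAX, which was lower in AE9a than wild type cells by 1 of its 3 probes. Sequences are from RefSeq, build GRCh38.p14, 5′ to 3′ on the gene's strand. Each stops short of the first annotated base of the gene. The annotated genes span chr19:47220824-47232860 for BBC3, chr20:31664452-31723963 for BCL2L1 and chr19:48954875-48961798 for BAX. The BBC3 stretch is chr19:47232861-47232917 on the minus strand, the 57 bases of its window that lie outside the annotated gene. The BCL2L1 window is chr20:31723964-31724213 on the minus strand, the most upstream start in the table. The BAX window is chr19:48954625-48954874 on the plus strand. Capitals mark the motif letters CACGTG (E-box) in BBC3 and BAX, and TGTGGT (the RUNX core, here on the opposite strand) in BCL2L1.
BBC3: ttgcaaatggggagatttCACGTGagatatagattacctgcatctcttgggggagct
BCL2L1: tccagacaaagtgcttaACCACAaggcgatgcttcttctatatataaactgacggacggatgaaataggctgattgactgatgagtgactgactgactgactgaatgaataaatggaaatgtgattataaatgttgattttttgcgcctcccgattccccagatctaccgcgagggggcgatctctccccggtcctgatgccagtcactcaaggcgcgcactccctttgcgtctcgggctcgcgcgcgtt
BAX: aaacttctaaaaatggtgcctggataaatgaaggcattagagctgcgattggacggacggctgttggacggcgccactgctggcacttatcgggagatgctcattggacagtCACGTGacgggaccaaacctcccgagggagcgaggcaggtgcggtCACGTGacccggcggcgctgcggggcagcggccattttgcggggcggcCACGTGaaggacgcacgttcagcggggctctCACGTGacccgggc
These letters were searched on both strands in the 250 bases before each listed start, for 9 members with 14 windows; MCL1 was not in the table. The 5 motifs searched were TGTGGT (RUNX), TTCNNNGAA (STAT), TGATGNAA (ATF4), GTAAACA (FOXO) and CACGTG (E-box), and matches of different motifs did not overlap. TGTGGT was in 1 member window, that of BCL2L1, where its first base lay 233 bases before the start, and in 11% of all 35116 windows. CACGTG was in 6.34% of all windows and in windows of BBC3, BAX and BID, the last as 1 site shared by 2 overlapping windows. The BAX window held it at 138, 93, 45 and 14 bases before the start, and 5 of the 35116 windows (0.0142%) held 4 or more. In BBC3 it lay 232 bases before the start. GTAAACA, in 2.98% of windows, was found in BCL2L11, and TTCNNNGAA (6.57%) and TGATGNAA (3.14%) were found in BCL2A1. A match describes the letters of the window only.

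PRMT1, the target of the siRNA, read 461.4, 467.9 and 525.8 on the AE9a siPRMT1 arrays, against 793.8, 816.8 and 695.3 on the AE9a control arrays (raw bead intensity in arbitrary units). In wild type cells it read 1269.7, 1003.6 and 902.3 with siPRMT1, against 1166.2, 1338.7 and 1832.0 with the control siRNA. The log2 fold change was -0.61 ± 0.16 in AE9a cells (limma with Benjamini-Hochberg adjustment over all probes, adjusted p = 0.0211) and -0.46 ± 0.16 in wild type cells (limma, adjusted p = 0.486), so the call was made in AE9a cells alone, while the difference between these effects was -0.14 ± 0.23 (limma, adjusted p = 0.853). The line could not be checked in the same way, because of 5 probes for RUNX1T1 none exceeded the background level on more than 1 array. The level taken for background, since no detection p-values were used, was the 95th percentile of the 437 probes for olfactory receptors, and it lay between 66.7 and 79.5. Of the erythroid marker list, 10 of 10 annotated genes were above that level on every array. Of the 3 lists for lymphoid, granulocyte and monocyte, and fibroblast and epithelial cells, 1 to 4 of 6 annotated genes were above it on every array of a group, with CD3E, MPO, ELANE, CSF3R, CDH1, COL3A1 and KRT5 below it on all arrays. In a principal component analysis the first component, 61.3% of the variance, separated the lines. On the second, 15.8%, wild type control array 3 (-15.8) stood with the wild type siPRMT1 arrays (-6.54, -0.45 and -18.0) and apart from wild type control arrays 1 and 2 (21.9 and 21.7).

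Of the 10 members, 9 had a probe that exceeded the olfactory receptor level on each of the 12 arrays. BCL2A1 was the exception: its probe exceeded that level on 1 of 12 arrays, with readings between 58.3 and 76.7, so it has only a bound in most groups. In all, 17 of the 22 probes were above background on every array, and 21 passed the filter on mean intensity and were tested. The probe left out, ILMN_1701120 for BCL2, was above background on 0 arrays. Intensities of different probes are not on a common scale and are not set against each other, and the files do not say which transcript of a gene a probe reads. In bulk RNA of this kind, fewer cells that express a gene and less of its RNA per cell cannot be told apart.

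**Figure D1:**
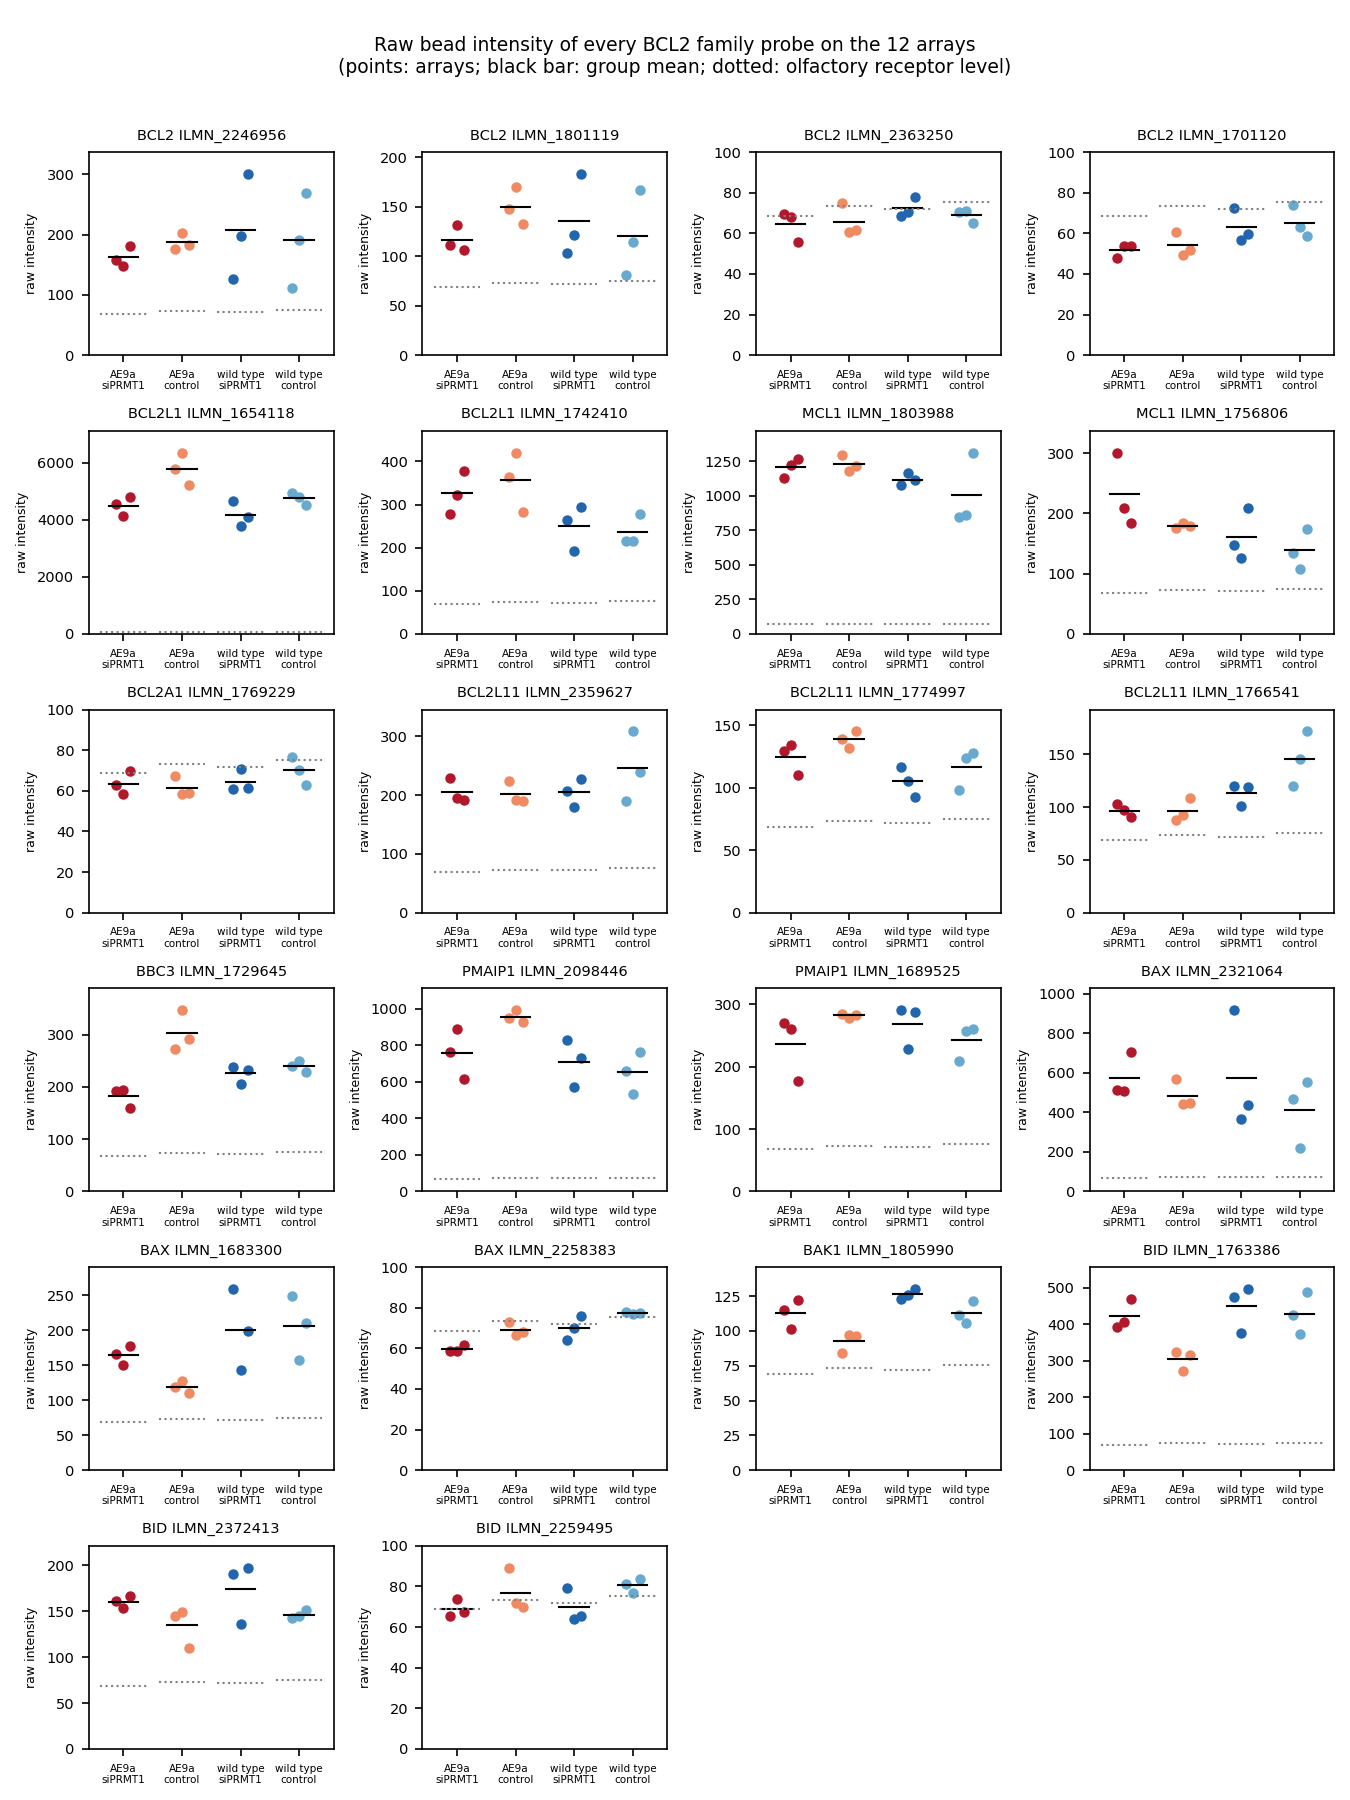
Raw bead intensity (vertical axis, arbitrary units) of each BCL2 family probe on each array, with the arrays of the 4 groups side by side. Points are arrays, bars are group means of 3 arrays, and the dotted line is the mean of the group's olfactory receptor levels. BBC3 reads between 159.6 and 193.8 on AE9a siPRMT1 arrays, below all 9 other arrays, and BCL2A1 lies near the dotted line.

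The siRNA against PRMT1 was set against the control siRNA in AE9a cells, which asks how the apoptosis regulators stand 24 hours after PRMT1 knockdown. 3 of 21 member probes were called, those of BBC3, BCL2L1 and BID, with BID higher and the other 2 lower in siPRMT1 cells. That is 14.3% of the member probes, beside 13.8% of all 28338 probes tested (6.42% higher and 7.39% lower), so the members' share was close to the background. By genes, 3 of 10 members had a called probe, beside 19.4% of all 13929 genes tested. The median log2 fold change over the member probes was -0.03, beside 0.01 over all probes. The median absolute log2 fold change was 0.21 for member probes and 0.11 for all probes. These 2 medians were not matched for intensity: 17 of the 22 member probes exceeded background on every array, as did 15331 of all 47231 probes. On the normalised scale, the 3 siPRMT1 and 3 control arrays did not overlap for 10 of the 21 member probes, where 37.6% of all probes did not. The lymphoid marker list, with CD3E below background throughout, summed to between 2270 and 2832 in raw intensity with siPRMT1 and between 1936 and 2026 with the control siRNA in these cells. The erythroid list summed to between 136200 and 139900 with siPRMT1 and between 143900 and 153000 with the control siRNA. A sum of raw intensities is weighted by the brightest probes of a list, so it does not describe the single markers. The part of these lists in the siPRMT1 comparison was not tested.

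Among the anti-apoptotic members, BCL2L1 carried the call. Its probe ILMN_1654118 read 4541.6, 4134.4 and 4802.5 with siPRMT1, against 5777.7, 6363.6 and 5217.0 with the control siRNA in AE9a cells. All 3 siPRMT1 arrays lay below all 3 control arrays. The log2 fold change was -0.41 ± 0.11, 1.33-fold lower (limma, adjusted p = 0.0252). Its other probe, ILMN_1742410, read 277.4, 323.4 and 377.1 with siPRMT1 and 364.0, 420.8 and 283.3 with the control siRNA. Those arrays overlapped and the log2 fold change was -0.06 ± 0.18 (limma, adjusted p = 0.903), so the BCL2L1 call rests on 1 of its 2 probes. The call was lost without AE9a control array 1 or 2 (limma, adjusted p = 0.0662 and 0.122) and without AE9a siPRMT1 array 1 or 2 (limma, adjusted p = 0.0771 and 0.113).

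MCL1, the short-lived anti-apoptotic member, was not called. Its probe ILMN_1803988 read 1123.9, 1223.7 and 1265.5 with siPRMT1 and 1294.7, 1176.3 and 1213.7 with the control siRNA, and the groups overlapped. Its probe ILMN_1756806 gave a log2 fold change of 0.40 ± 0.20 (limma, adjusted p = 0.227), from readings of 301.2, 209.6 and 184.3 with siPRMT1 and 175.2, 184.3 and 179.4 with the control siRNA. That probe was called only where replicate numbers were a block in the wild type arrays (limma, adjusted p = 0.0386). BCL2 itself was not called either. Its probe ILMN_2246956 read 157.0, 147.5 and 181.3 with siPRMT1 and 176.1, 203.0 and 182.8 with the control siRNA in AE9a cells. ILMN_1801119 for BCL2 read 111.5, 131.2 and 106.7 with siPRMT1 and 147.8, 169.8 and 132.4 with the control siRNA. The 2 probes gave -0.11 ± 0.30 and -0.23 ± 0.24 on the log2 scale (limma, adjusted p = 0.882 and 0.628).

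Among the BH3-only members, BBC3, which encodes PUMA, moved most. It read 192.4, 193.8 and 159.6 with siPRMT1, against 272.3, 347.4 and 291.8 with the control siRNA in AE9a cells. The groups were far from overlapping, with the gap between the lowest control array and the highest siPRMT1 array wider than the range within either group. The log2 fold change was -0.63 ± 0.11 (95% interval -0.87 to -0.38), 1.54-fold lower, at an adjusted p of 0.00303 (limma). BBC3 stayed called under each of the 24 alternatives run, with adjusted p up to 0.0209.

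BID, which encodes the BH3-only protein that caspase-8 cleaves to its active form, was called higher with siPRMT1 by 1 of its 3 probes. Its probe ILMN_1763386 read 393.1, 406.2 and 468.8 with siPRMT1, against 324.9, 271.8 and 316.3 with the control siRNA in AE9a cells. The 2 groups did not overlap, and the log2 fold change was 0.52 ± 0.14, 1.43-fold higher (limma, adjusted p = 0.0253). ILMN_2372413 for BID read 160.8, 153.8 and 166.8 with siPRMT1 and 144.3, 149.5 and 109.5 with the control siRNA. It gave a log2 fold change of 0.34 ± 0.14 and was not called (limma, adjusted p = 0.127). The third BID probe, ILMN_2259495, was above background on 8 of 12 arrays and read between 64.2 and 89.3. The BID call was lost without any 1 of the AE9a control arrays (limma, adjusted p = 0.0556, 0.119 and 0.057 without arrays 1, 2 and 3), and without AE9a siPRMT1 array 2 or 3 (limma, adjusted p = 0.0552 and 0.124).

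PMAIP1, which encodes NOXA, the BH3-only protein that binds MCL1, was not called. ILMN_2098446 read 764.7, 888.4 and 613.0 with siPRMT1 and 947.8, 992.7 and 929.3 with the control siRNA in AE9a cells. The arrays of the 2 groups did not overlap, but the log2 fold change of -0.32 ± 0.15 missed the threshold (limma, adjusted p = 0.210). Its probe ILMN_1689525 gave -0.21 ± 0.14 (limma, adjusted p = 0.406). The 3 probes of BCL2L11, which encodes BIM, gave log2 fold changes between -0.05 and 0.11 in AE9a cells, with adjusted p of 0.753 or higher (limma).

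Of the pore-forming members, neither BAX nor BAK1 was called in the fit of all 12 arrays with 1 mean per group, and both were under other settings. BAX ILMN_1683300 read 165.5, 150.7 and 178.0 with siPRMT1, against 118.6, 127.4 and 110.6 with the control siRNA in AE9a cells. These arrays did not overlap, and the log2 fold change was 0.51 ± 0.18 (limma, adjusted p = 0.0695). Replicate numbers were also taken as a block in the wild type arrays. With that block the same log2 fold change of 0.51 had an SE of 0.10 and was called (limma, adjusted p = 0.00222). It was also called with only the AE9a arrays fitted (limma, adjusted p = 0.00372), with array weights (limma, adjusted p = 0.0203), and in 4 other settings. BAX ILMN_2321064 read 513.1, 507.4 and 706.2 with siPRMT1 and 568.6, 442.2 and 445.7 with the control siRNA. Its groups overlapped and its log2 fold change was 0.29 ± 0.32 (limma, adjusted p = 0.653). BAX ILMN_2258383 was above background on 3 of 12 arrays. BAK1 had 1 probe, which read 114.8, 101.4 and 122.3 with siPRMT1 and 84.2, 97 and 96.3 with the control siRNA. All 3 siPRMT1 arrays lay above the control arrays. The log2 fold change was 0.32 ± 0.11 (limma, adjusted p = 0.0733), and the block in the wild type arrays brought it past the threshold (limma, adjusted p = 0.0351), as did fitting only the AE9a arrays (limma, adjusted p = 0.0424) and array weights (limma, adjusted p = 0.0499).

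In wild type cells, where the same comparison used separate arrays, 0 of 21 member probes were called by limma, and 0% of all probes were. The smallest adjusted p among the members was 0.571. At an unadjusted p under 0.05, 1 member probe passed, BCL2L1 ILMN_1654118, and 2471 of the 28338 probes did. It read 4650.4, 3801.3 and 4097.9 with siPRMT1 and 4958.4, 4814.2 and 4505.7 with the control siRNA in wild type cells. The log2 fold change was -0.24 ± 0.11 (95% interval -0.48 to -0.01), and the groups did not overlap on the normalised scale, as they did not for 9.75% of all probes. BBC3 read 239.2, 206.5 and 233.4 with siPRMT1 and 239.7, 250.4 and 228.0 with the control siRNA. These overlapped, with a log2 fold change of -0.09 ± 0.11 (95% interval -0.33 to 0.16). BID ILMN_1763386 read 476.0, 377.4 and 497.6 with siPRMT1 and 426.0, 373.9 and 488.0 with the control siRNA, and its log2 fold change was 0.04 ± 0.14. The wild type control group included array 3, which stood apart on the second component. Leaving it out gave 0 called members in wild type cells as well, while 843 of all probes were then called.

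**Figure D2:**
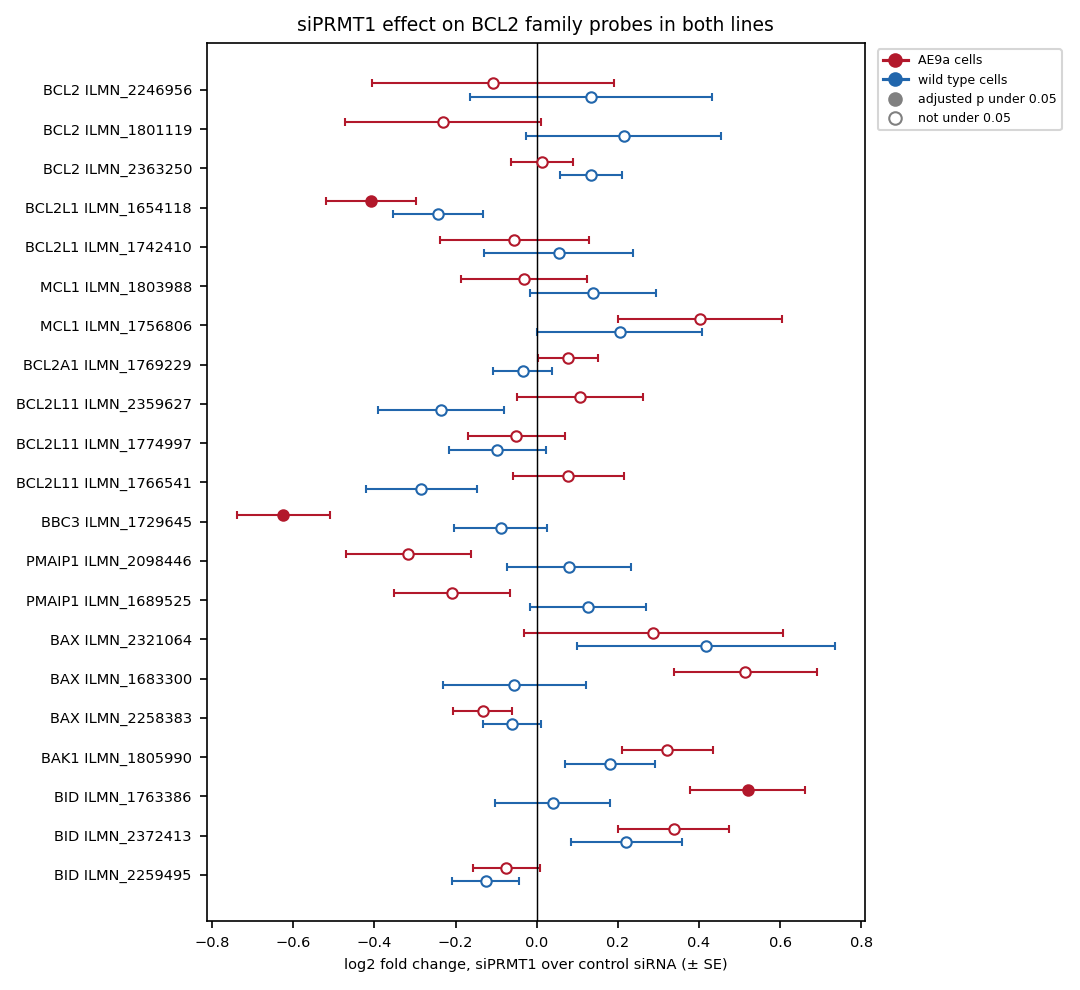
Log2 fold change of siPRMT1 over control siRNA (horizontal axis, bars are ± SE from limma) for the 21 tested BCL2 family probes in AE9a cells and in wild type cells. Filled points have an adjusted p under 0.05. Filled points are seen for BBC3, BCL2L1 ILMN_1654118 and BID ILMN_1763386 in AE9a cells and for none in wild type cells.

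The difference between the 2 siPRMT1 effects was then tested itself. By limma 0 of 21 member probes were called, beside 0.917% of all probes (1.33% of genes). At an unadjusted p under 0.05, 3 member probes passed, BBC3, BAX ILMN_1683300 and BID ILMN_1763386, and 3694 of the 28338 probes did. For BBC3 the effect in AE9a cells minus that in wild type cells was -0.54 ± 0.16 on the log2 scale (95% interval -0.88 to -0.19, limma, adjusted p = 0.155). For BAX ILMN_1683300 it was 0.57 ± 0.25 (limma, adjusted p = 0.345), and with the replicate block in the wild type arrays 0.57 ± 0.14 (limma, adjusted p = 0.038). For BID ILMN_1763386 it was 0.48 ± 0.20 (limma, adjusted p = 0.320), and for BCL2L1 ILMN_1654118 -0.16 ± 0.16 (95% interval -0.50 to 0.17). The changes of BBC3, BCL2L1 and BID called in AE9a cells are thus not shown to differ from those in wild type cells, while for BAX ILMN_1683300 that depends on the block.

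The lines were compared under each siRNA, which asks how AE9a cells stand against wild type K562. PRMT1 itself was lower in AE9a cells under either siRNA. Its log2 fold change was -0.89 ± 0.16 under the control siRNA and -1.03 ± 0.16 under siPRMT1 (limma, adjusted p = 0.000777 and 0.000254). The part of this PRMT1 difference in the line comparisons and in the difference between the siPRMT1 effects was not tested. The comparison under the control siRNA shares its 3 AE9a control arrays with the siPRMT1 comparison above, so a high or low value on those arrays enters both with opposite sign. Under the control siRNA 5 of 21 member probes were called, 2 higher and 3 lower in AE9a cells. This is 23.8% of the member probes, beside 26.7% of all probes (13.2% higher and 13.4% lower), so the share was close to the background here too. By genes it is 5 of 10 members, beside 35.8% of all genes tested. Summed raw intensity of the marker lists differed between the lines as well. Under the control siRNA the erythroid list summed to between 143900 and 153000 in AE9a cells and between 95230 and 102900 in wild type cells, and the fibroblast and epithelial list to between 6044 and 6479 in AE9a cells and between 9832 and 12970 in wild type cells. The granulocyte and monocyte list summed to between 1397 and 1644 in AE9a cells and between 737.6 and 884.9 in wild type cells, and the lymphoid list to between 1936 and 2026 in AE9a cells and between 2684 and 4650 in wild type cells. These sums too are weighted by the brightest probes and do not describe the single markers. The part of these lists in the line comparisons was not tested. The median log2 fold change was 0.03 over member probes and -0.02 over all probes. The median absolute values were 0.29 and 0.15, again not matched for intensity. The arrays of the 2 lines did not overlap for 9 member probes, where 38.9% of all probes did not.

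BAX, the pore former, differed most. Its probe ILMN_1683300 read 118.6, 127.4 and 110.6 in AE9a control cells, against 248.9, 157.7 and 209.8 in wild type control cells. No array of one line reached the other, and the log2 fold change was -0.75 ± 0.18, 1.68-fold lower in AE9a cells (limma, adjusted p = 0.00547). It was called under each of the 24 alternatives. BAX ILMN_2321064 went the other way without a call, at 0.30 ± 0.32 (limma, adjusted p = 0.567), with readings of 568.6, 442.2 and 445.7 in AE9a control cells and 468.7, 220.4 and 552.0 in wild type control cells. The 2 BAX probes thus disagreed in sign, and the lower level applies to ILMN_1683300 only.

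BCL2L11 was called lower by 1 of its 3 probes in the fit of all arrays. ILMN_1766541 read 87.6, 92.8 and 109.2 in AE9a control cells, against 119.7, 145.4 and 172.0 in wild type control cells. The lines did not overlap, with a log2 fold change of -0.53 ± 0.14 (limma, adjusted p = 0.00941) that was called under each of the 24 alternatives. ILMN_2359627 gave -0.28 ± 0.16 (limma, adjusted p = 0.214), but -0.46 ± 0.14 without wild type control array 1 (limma, adjusted p = 0.0261) and -0.12 ± 0.14 without wild type control array 2 (limma, adjusted p = 0.630). The third probe, ILMN_1774997, gave 0.21 ± 0.12 (limma, adjusted p = 0.250). BID ILMN_1763386 was also lower in AE9a cells, with 324.9, 271.8 and 316.3 in AE9a control cells, against 426.0, 373.9 and 488.0 in wild type control cells. Its log2 fold change was -0.49 ± 0.14 (limma, adjusted p = 0.0196). That call was lost without wild type control array 3 (limma, adjusted p = 0.0654) or AE9a control array 2 (limma, adjusted p = 0.0934).

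PMAIP1 and BCL2L1 were higher in AE9a cells. PMAIP1 ILMN_2098446 read 947.8, 992.7 and 929.3 in AE9a control cells, against 658.7, 532.7 and 765.1 in wild type control cells. All AE9a arrays lay above all wild type arrays, and the log2 fold change was 0.55 ± 0.15, 1.47-fold higher (limma, adjusted p = 0.0156). Without wild type control array 2 or AE9a control array 2 it was not called (limma, adjusted p = 0.0691 and 0.055). ILMN_1689525 for PMAIP1 gave 0.20 ± 0.14 (limma, adjusted p = 0.375). BCL2L1 ILMN_1742410 read 364.0, 420.8 and 283.3 in AE9a control cells, against 214.8, 215.9 and 277.1 in wild type control cells. The lowest AE9a array was just above the highest wild type array, and the log2 fold change was 0.54 ± 0.18 (limma, adjusted p = 0.0425). It was not called without any 1 of AE9a control arrays 1 and 2 and wild type control arrays 1 and 2, where the limma adjusted p was 0.103, 0.178, 0.123 and 0.121 in that order. It also lost its call without wild type siPRMT1 array 1 (limma, adjusted p = 0.051) and without AE9a siPRMT1 array 2 (limma, adjusted p = 0.0588). The other BCL2L1 probe, ILMN_1654118, had the same sign at 0.29 ± 0.11 (limma, adjusted p = 0.0723). It passed in 4 of the 24 alternatives, among them median scaling and the replicate block in the wild type arrays (limma, adjusted p = 0.0434 and 0.0469).

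BBC3 gave a log2 fold change of 0.30 ± 0.11 between AE9a and wild type control cells (limma, adjusted p = 0.0727), with no overlap between the lines. It was called in 5 of the 24 alternatives, with adjusted p between 0.0313 and 0.0495 (limma), among them median scaling and the fit without AE9a control array 1. MCL1 ILMN_1803988 read 1294.7, 1176.3 and 1213.7 in AE9a control cells and 844.4, 862.0 and 1311.4 in wild type control cells. The wild type value is spread by its array 3: the log2 fold change was 0.31 ± 0.16 with it (limma, adjusted p = 0.177) and 0.50 ± 0.12 without it (limma, adjusted p = 0.00728). BCL2 ILMN_1801119 gave 0.31 ± 0.24 (limma, adjusted p = 0.405), and 0.31 ± 0.11 with the replicate block in the wild type arrays (limma, adjusted p = 0.0354). Without the block it was 0.03 ± 0.22 when wild type control array 1 was left out and 0.60 ± 0.21 when wild type control array 3 was (limma, adjusted p = 0.940 and 0.0548).

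Under siPRMT1, 0 of 21 member probes were called between the lines by limma, beside 24.7% of all probes and 33.2% of all genes. At an unadjusted p under 0.05, 2 member probes passed, MCL1 ILMN_1756806 and BCL2L1 ILMN_1742410, and 9727 of the 28338 probes did. MCL1 ILMN_1756806 read 301.2, 209.6 and 184.3 in AE9a siPRMT1 cells and 148.3, 126.3 and 209.1 in wild type siPRMT1 cells, with overlap. Its log2 fold change was 0.53 ± 0.20 (limma, adjusted p = 0.0742), and 0.53 ± 0.13 with the replicate block in the wild type arrays (limma, adjusted p = 0.00581). It also passed without wild type control array 3 (limma, adjusted p = 0.0397) or without wild type siPRMT1 array 3 (limma, adjusted p = 0.0154). BCL2L1 ILMN_1742410 gave 0.43 ± 0.18 (limma, adjusted p = 0.109), and passed with that block (limma, adjusted p = 0.0391). The 5 probes called under the control siRNA gave smaller absolute values here. They were picked by their values there, so smaller values elsewhere can come from that choice alone. The values here were -0.18 for BAX ILMN_1683300, -0.17 for BCL2L11 ILMN_1766541, -0.01 for BID ILMN_1763386, 0.16 for PMAIP1 ILMN_2098446 and 0.43 for BCL2L1 ILMN_1742410. The difference between the line effects under the 2 siRNAs is the same contrast as the difference between the siPRMT1 effects, for which no member probe was called without the block. The median log2 fold change was -0.01 over member probes and -0.01 over all probes, and the median absolute values were 0.14 and 0.14. The lines did not overlap for 2 member probes, of BCL2L11 (ILMN_1774997) and BBC3, where 38.8% of all probes did not.

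**Figure D3:**
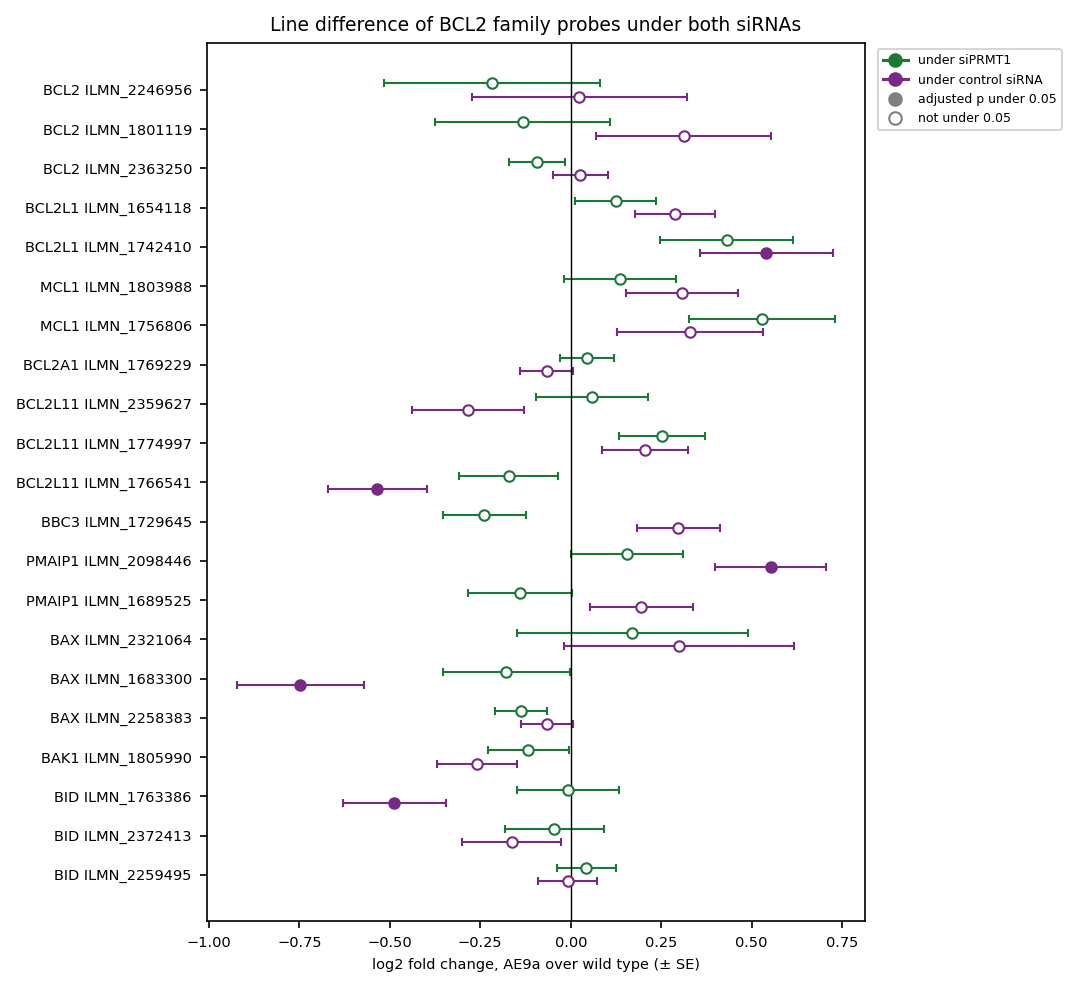
Log2 fold change of AE9a over wild type cells (horizontal axis, bars are ± SE from limma) for the 21 tested BCL2 family probes, under siPRMT1 and under the control siRNA. Filled points have an adjusted p under 0.05. The 5 filled points, of BCL2L1, BCL2L11, PMAIP1, BAX and BID, are all under the control siRNA.

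Several members varied widely within groups. The pooled within-group SD of the normalised log2 intensity was 0.49 for BAX ILMN_2321064 and 0.46 for BCL2 ILMN_2246956, beside a median of 0.12 over all tested probes. They stood at percentiles 98.4 and 98.1 of that spread, whereas BBC3, at 0.11, stood at percentile 44.3. The spread of BCL2 lay in wild type cells and followed the replicate number. ILMN_2246956 read 126.9, 197.1 and 300.7 on wild type siPRMT1 arrays 1, 2 and 3, and 112.1, 191.3 and 268.4 on wild type control arrays 1, 2 and 3. ILMN_1801119 read 103.5, 121.0 and 183.3 on the wild type siPRMT1 arrays and 81.0, 114.5 and 167.1 on the wild type control arrays of those numbers. Both probes thus had array 3 highest and array 1 lowest under either siRNA in wild type cells, which the AE9a arrays did not show. Within the 3 wild type pairs, siPRMT1 minus control for ILMN_2246956 was 0.19, 0.09 and 0.12 on the log2 scale. The replicate block lowered the SE of this probe to 0.11, against 0.30 without it, and BCL2 still was not called in wild type cells (limma, adjusted p = 0.613).

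BAX ILMN_1683300 also followed the number in wild type cells, with 259.2, 143.4 and 199.2 on siPRMT1 arrays 1, 2 and 3 and 248.9, 157.7 and 209.8 on control arrays 1, 2 and 3. Array 2 was lowest and array 1 highest under both siRNAs. BAX ILMN_2321064 read 918.6, 368.4 and 435.4 on the wild type siPRMT1 arrays and 468.7, 220.4 and 552.0 on the wild type control arrays, so array 2 was lowest in both. The labels used here do not explain what the replicate numbers stand for, and their part in these values was not tested.

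**Figure D4:**
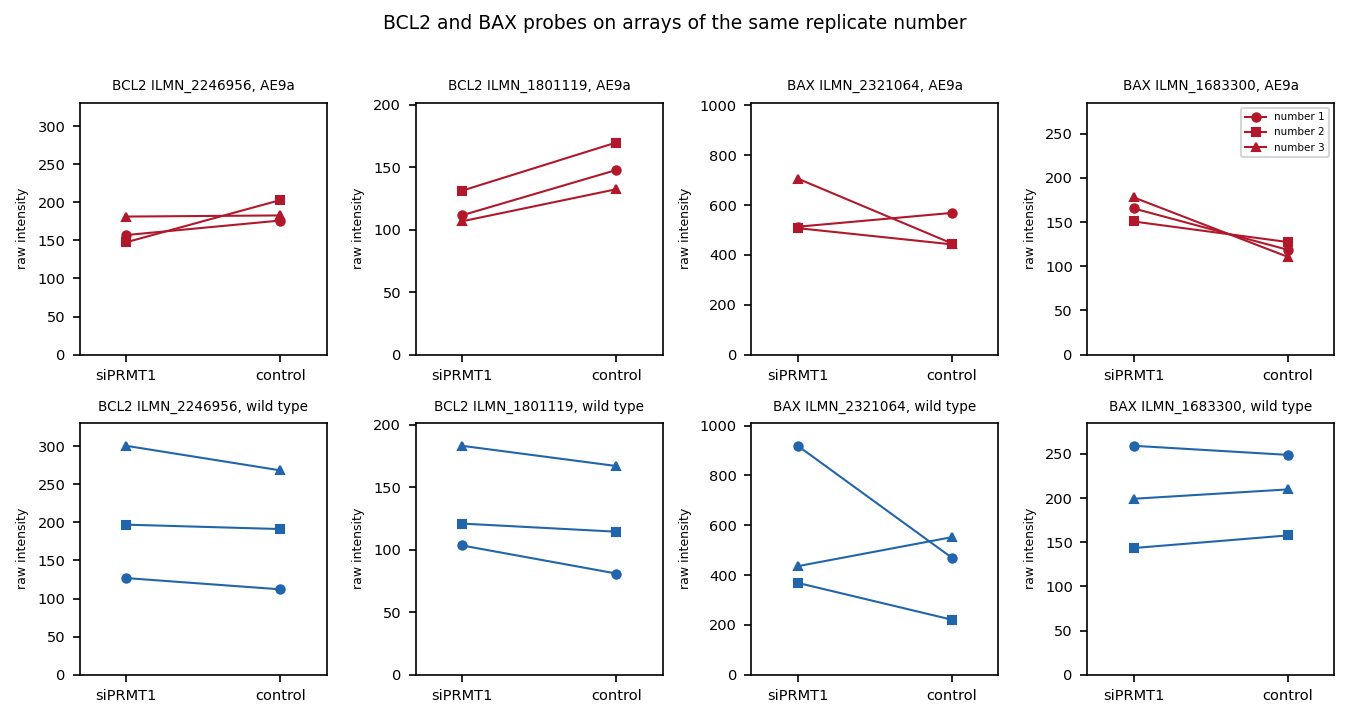
Raw bead intensity (vertical axis, arbitrary units) of 2 BCL2 and 2 BAX probes on siPRMT1 and control arrays, AE9a cells above and wild type cells below, with a line joining arrays of the same replicate number. In wild type cells the lines of both BCL2 probes and of BAX ILMN_1683300 keep their order from one siRNA to the other.

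Probes of the same gene followed each other to differing degrees. Over the 12 arrays, Pearson's r between normalised log2 values was 0.87 for the pair of BCL2 probes, 0.70 for BID, 0.55 for PMAIP1, 0.48 for BCL2L1 and MCL1 each, and 0.34 for BAX. For the 3 BCL2L11 pairs it was 0.62, 0.13 and -0.09. After group means were taken out the BCL2 pair reached 0.91 and the BAX pair 0.82. On that measure PMAIP1 had 0.54, BID 0.42, BCL2L1 0.38 and MCL1 0.25. The 3 BCL2L11 pairs, in the order above, had 0.47, 0.43 and 0.72. These are descriptions over arrays that share lines and siRNAs, for probes above background only.

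The 4 members whose groups differed most by the moderated F statistic, each by its brightest probe, were BBC3, BCL2L1, BID and BAK1. Among 11776 other genes, the profile of BBC3 over the 12 arrays was most like those of LONP1 (r = 0.94), UBE2F (0.93) and ADPRM (0.93). BCL2L1 was most like HDGFL1 (0.92), RABAC1 (0.91) and DNAJB2 (0.91). The genes most like BID were EED (0.96), BAG2 (0.96) and RBM28 (0.95), and those most like BAK1 were POLR1A (0.93), YDJC (0.93) and TLNRD1 (0.92). Each r is Pearson's over 12 arrays in 4 groups and is the highest of 11776, so it describes likeness only.

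Genes that work beside the members were described by 3 lists. Of 13 tested genes among the other BCL2 family genes, 0 rose and 4 fell with siPRMT1 in AE9a cells, beside 19.4% of all genes called in either direction. Their median log2 fold change was -0.31, beside 0.01 over all probes. BNIP3 and BNIP3L, mitochondrial proteins known for mitophagy under low oxygen, fell by 1.39 ± 0.27 and 1.28 ± 0.29 on the log2 scale (limma, adjusted p = 0.00442 and 0.00994). BCL2L13, another mitophagy receptor of the outer membrane, fell by 0.70 ± 0.12 (limma, adjusted p = 0.00222). Under the control siRNA BNIP3 had a log2 fold change of 1.55 ± 0.27 in AE9a over wild type cells (limma, adjusted p = 0.000682), a comparison that shares the AE9a control arrays. In that comparison 5 of the 13 were higher and 1 lower, beside 35.8% of all genes called, with HRK, a BH3-only gene, at 0.66 ± 0.13 and BCL2L2, which encodes anti-apoptotic BCL-W, at 0.72 ± 0.15 (limma, adjusted p = 0.00183 and 0.00226). Under siPRMT1 2 were higher and 3 lower in AE9a cells, beside 33.2% of all genes called. The 3 lower were BCL2L13 (-0.64 ± 0.12), MOAP1 (-0.69 ± 0.16), whose protein binds BAX, and BOK (-0.60 ± 0.14), a relative of BAX. Under the control siRNA they gave -0.15, -0.16 and -0.63 (limma, adjusted p = 0.437, 0.537 and 0.00456). The 2 higher were HRK and BCL2L2, at 0.53 ± 0.13 and 0.46 ± 0.15 (limma, adjusted p = 0.00852 and 0.035). BNIP3 gave 0.58 ± 0.27 there (limma, adjusted p = 0.151).

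Of 19 tested genes of the apoptosome, the caspases and their inhibitors, 1 rose and 2 fell with siPRMT1 in AE9a cells, a share near the 19.4% of all genes called. The median log2 fold change was 0.12. DFFB, the nuclease that cuts DNA in apoptosis, rose by 0.57 ± 0.16 (limma, adjusted p = 0.0268). AIFM1, the mitochondrial apoptosis-inducing factor, fell by 0.67 ± 0.19 and BIRC2, which encodes cIAP1, by 0.45 ± 0.14 (limma, adjusted p = 0.0330 and 0.0449), each by 1 of 2 probes. Between the lines, 6 of the 19 were higher and 2 lower in AE9a cells under the control siRNA, beside 35.8% of all genes called, and 8 were higher and 1 lower under siPRMT1, beside 33.2%. XIAP, which binds and blocks caspases, was higher by 0.64 ± 0.10 under the control siRNA (limma, adjusted p = 0.000259). Under siPRMT1 its log2 fold change was 0.36 ± 0.10 (limma, adjusted p = 0.0168). CASP6, an effector caspase, was lower by all 3 of its probes, with log2 fold changes of -0.67, -0.82 and -0.51 under the control siRNA (limma, adjusted p = 0.0146, 0.00266 and 0.00206). Under siPRMT1 the same probes gave -0.45, -0.45 and -0.46 (limma, adjusted p = 0.0972, 0.0729 and 0.0049), and only the last was called. ENDOG, a mitochondrial nuclease, was higher by 1.04 ± 0.13 under siPRMT1 and by 0.72 ± 0.13 under the control siRNA.

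Of 21 tested regulators of the members, 1 rose and 7 fell with siPRMT1 in AE9a cells, beside 19.4% of all genes called, and the median log2 fold change was -0.04. PIM1, a STAT5 target and a kinase that phosphorylates BAD, fell by 1.59 ± 0.15 (limma, adjusted p = 4.28e-05). DDIT3, which encodes the stress factor CHOP, and TRIB3, a CHOP and ATF4 target, fell by 1.43 ± 0.19 and 1.67 ± 0.28 (limma, adjusted p = 0.000396 and 0.00172). For these 3 genes the difference between the effect in AE9a cells and that in wild type cells was called as well, at -1.13 ± 0.22, -1.21 ± 0.26 and -1.83 ± 0.40 (limma, adjusted p = 0.0278, 0.0477 and 0.0477). No gene of the other 2 lists was called for that difference, and 0 genes of the 3 lists were called by limma for siPRMT1 in wild type cells, as 0 of all probes were. Between the lines, 6 regulators were higher and 7 lower in AE9a cells under the control siRNA, where 35.8% of all genes were called, and 3 were higher and 8 lower under siPRMT1, where 33.2% were. STAT5A, which acts below BCR-ABL, and STAT5B were lower under either siRNA. For STAT5A the log2 fold change was -1.48 ± 0.15 under the control siRNA and -0.93 ± 0.15 under siPRMT1 (limma, adjusted p = 4.41e-06 and 0.000334). For STAT5B it was -1.09 ± 0.15 under the control siRNA and -1.33 ± 0.15 under siPRMT1 (limma, adjusted p = 9.94e-05 and 1.79e-05). MYC was lower by 1.19 ± 0.13 under the control siRNA and by 1.04 ± 0.13 under siPRMT1.

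**Figure D5:**
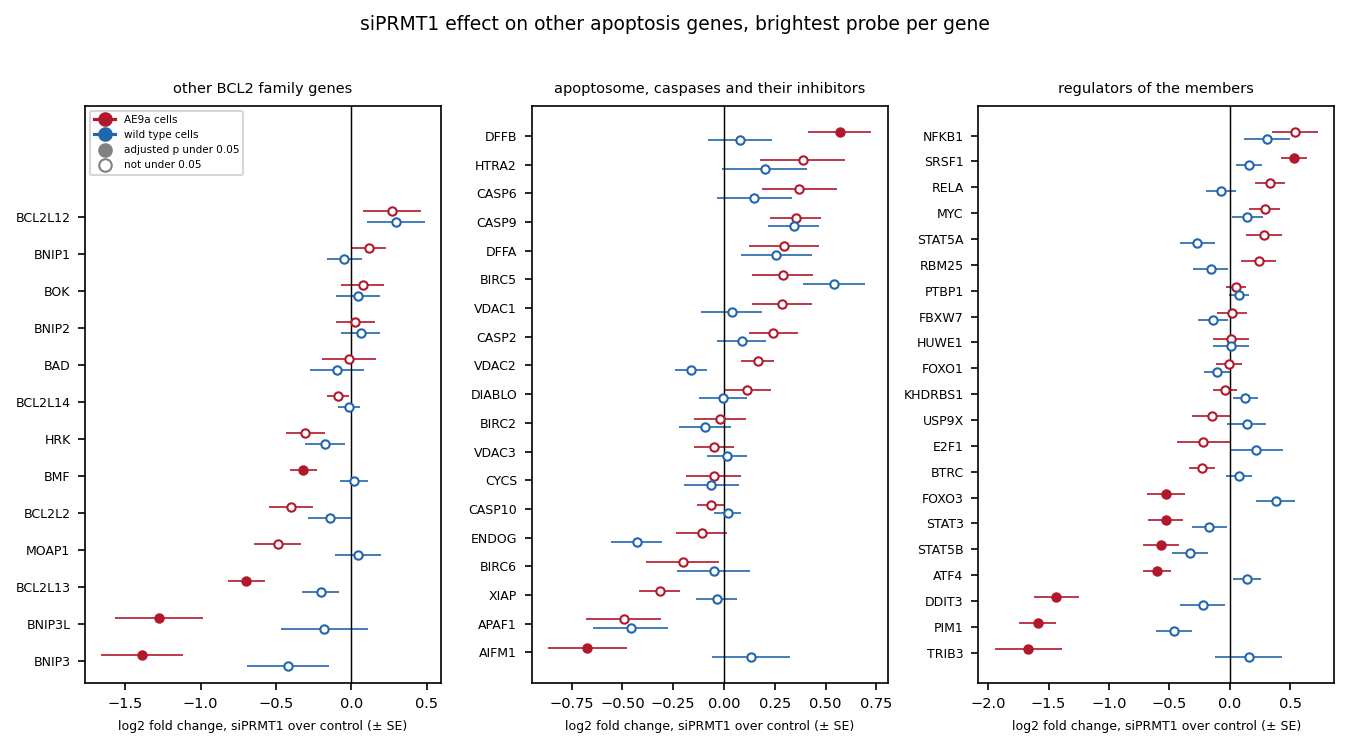
Log2 fold change of siPRMT1 over control siRNA (horizontal axes, bars are ± SE from limma) for the brightest tested probe of each gene in 3 lists around the members, in AE9a cells and in wild type cells. Filled points have an adjusted p under 0.05. Filled points, among them BNIP3, BNIP3L, BCL2L13, PIM1, DDIT3 and TRIB3 on the left side, are all in AE9a cells.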

How the data were processed

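Raw bead intensities of 47231 probes on 12 arrays were used as deposited, without detection p-values or control probes. The submitters' processing notes name GenomeStudio, with neither version nor role. A second deposited table holds the authors' processed intensity on a linear scale, normalised in a way the sources used here do not state, with column medians of 65.5 to 65.8 and no centring. It served as an alternative. Probes were named through the platform annotation, where 30113 had 1 gene symbol, 8 several and 17110 none. Promoter windows came from RefSeq.

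Background correction was by normexp with an offset of 50 and normalisation by quantiles in limma 3.58.1 under R 4.3.3, and the log2 values of the 28338 probes above the 40th percentile of mean intensity were fitted with 1 mean per group over all 12 arrays. The empirical Bayes fit used an intensity trend and had 13.8 degrees of freedom. Tests were two-sided, adjusted by Benjamini-Hochberg over all probes in each of 5 contrasts, and called under 0.05. Values after ± are SE. The number of arrays limits the precision. A list gene counts as called by any of its probes, and list medians use the brightest probe per gene.

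The members and the lists were chosen with earlier results of these data known. Of each list, at most 3 called genes with the smallest adjusted p per contrast are named, some also with their value under the other siRNA. For likeness the 3 genes with the highest r for each of 4 members are named. Deviations from group means were correlated between arrays of the same number. In wild type cells r was 0.578, 0.283 and 0.536 between siPRMT1 and control arrays 1, 2 and 3. Between the lines it was 0.0033, 0.312 and 0.372 for siPRMT1 arrays and 0.204, 0.044 and 0.064 for control arrays. Arrays of different numbers were not compared, so pairing of the wild type arrays by number is an assumption of the block. In AE9a cells the correlations between siPRMT1 and control arrays were -0.203, -0.296 and 0.00066, so the block named for single probes was that in the wild type arrays. A block in each line was also run, and its counts are given below. Alternatives covered background correction, scaling, filters, array weights, the block, the groups fitted and each array left out.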

Additional observations from a re-analysis of the deposited data

How the results depend on the processing

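With siPRMT1 in AE9a cells, the 3 called genes became 5 when the tested probes had to exceed the olfactory receptor level on each of the 12 arrays, with array weights, with the replicate block in each line or with only the groups compared in the fit, and 6 with the replicate block in the wild type arrays. Leaving out 1 array gave 1 to 4. The lowest counts came without AE9a control array 1 or 2 or AE9a siPRMT1 array 2. The difference between the siPRMT1 effects went to 1 called gene, BAX, with the block in the wild type arrays, and leaving out 1 array gave 0. Between the lines under the control siRNA, 5 called genes became 2 with the brightest probe per gene alone, and 2 to 5 with 1 array left out. That count became 6 with the submitters' values, array weights, no intensity trend, or the replicate block in each line or in the wild type arrays. It was also 6 when probes had to exceed the olfactory receptor level on all 12 arrays, and 4 when all probes were tested. Under siPRMT1 the count of 0 became 1 with array weights or the block in each line, 2 with the block in the wild type arrays, and 0 to 1 with 1 array left out. Wild type cells gave 0 called genes with siPRMT1 under each alternative. Median scaling took the calls of BCL2L1 with siPRMT1 in AE9a cells (limma, adjusted p = 0.0621) and of BID between the lines (0.0561), and testing all probes took that of BCL2L1 ILMN_1742410 between the lines (0.0503). Of 97 results without a call, 12 gained one under some alternative, and no result reversed. Over all probes, siPRMT1 in AE9a cells called 3913 and, with array weights, 7100. It called 6571 with only the groups compared, 6093 with the block in the wild type arrays, and 2086 to 5075 with 1 array left out. For the difference between the effects 260 probes were called, 1240 with the block in the wild type arrays, 630 with the block in each line, 473 without the intensity trend, 455 with array weights and 83 to 348 with 1 array left out. In wild type cells 0 became 14 and 1 with the 2 blocks. A fit with the chip as a block was not run, since the headers name no chip. The causes were not tested. The number of arrays and probes near background limit these values.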
